A study of Mus musculus with 9 samples.

Results

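Splicing in mammalian cells is run by a set of RNA-binding proteins and small nuclear ribonucleoproteins, and the genes described here are those whose symbols begin with Srsf, Hnrnp, Rbm, U2af, Snrp or Prpf. The symbol rule found 98 genes among the 22174 genes of the deposited expression table. They comprised 11 SR protein genes, 20 hnRNP genes, 12 Snrp genes, 3 U2AF genes, 13 PRPF genes and 39 RBM genes. The rule used names alone and no measured value. The question was whether splenic B cells of mice carrying the human MTCP1 or TCL1 oncogene differed from wildtype B cells in the expression of these genes and in the transcripts made from them.

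SR proteins bind exons through an RNA recognition motif and promote the choice of nearby splice sites, while hnRNP proteins coat nascent RNA and often oppose that choice. The Snrp genes encode Sm core proteins and particle-specific proteins of the small nuclear ribonucleoproteins, U2AF recognizes the 3′ splice site, and the PRPF proteins build and remodel the spliceosome. The RBM symbol is a naming group and not a complex: it holds spliceosome subunits such as Rbm22 and Rbm25, regulators of alternative exons such as Rbm5 and Rbm6, and proteins better known for RNA editing or RNA stability. Many SR genes limit their own output by including an exon with an early stop codon, which sends the transcript to nonsense-mediated decay (NMD).

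RNA-sequencing covered 9 C57/BL6NTac mice, with 1 library of splenic B cells, enriched by negative selection, per mouse. Wildtype mice (Z2785, Z2755 and Z2754) were littermates without the human transgene. Eµ-MTCP1 mice (Z2641, Z2606 and Z2551) carried human MTCP1 and all came from founder line Z36, whose transgene lies inside an intron of Fam168a. Eµ-TCL1 mice (C1594, B4437 and B4376) carried human TCL1. Both transgenes were driven by an immunoglobulin heavy-chain promoter and the Eµ enhancer, and the transgenic mice were diseased while the wildtype mice were age-matched. The human gene was high in the mice labelled for it: the authors' normalized log2 value of TCL1A was 14.9 to 15.6 in Eµ-TCL1 mice against 6.04 to 6.96 in all others, and that of MTCP1 was 11.1 to 12.3 in Eµ-MTCP1 mice against 5.85 to 6.19. Each library held 6464092 to 8053009 reads assigned to coding sequences, of which the 98 genes took 63996 to 105573, or 0.931 to 1.35%. The library of wildtype mouse Z2755 was on another lane than the other libraries. Mitochondrial genes took 10.7% of the reads in wildtype Z2754 and 8% in Eµ-MTCP1 Z2641, against 2.91 to 4.56% in the other 7 libraries. The summed level of 5 B-cell markers was 6243 to 9747 CPM (reads of a gene scaled to a fixed library total), that of 7 T-cell markers 3.57 to 50.1 CPM and that of 7 myeloid markers 353 to 1705 CPM, and not all of these ranges overlapped between groups. The B-cell sum was higher in Eµ-MTCP1 (8147 to 9747 CPM) than in wildtype mice (6769 to 7952 CPM). The T-cell sum reached 7.54 CPM at most in wildtype mice and was above that in every Eµ-TCL1 mouse, up to 50.1 CPM, and the sum of 5 cycling-cell markers was 295 to 411 CPM in Eµ-TCL1 against 150 to 225 CPM in wildtype mice. In Eµ-MTCP1 mice the cycling sum was 185 to 962 CPM, which overlapped wildtype and held the highest value of the 9 mice. The myeloid, erythroid and plasma-cell sums overlapped between wildtype and each transgenic group. In 3 of the lists single genes passed the test, namely Cd68 among myeloid, Prdm1 among plasma-cell and Mki67 among cycling-cell markers, all higher in Eµ-MTCP1 mice, and Cd68 and Prdm1 also in Eµ-TCL1 mice. The part of these markers in the results on splicing genes was not tested. In bulk samples a change in the share of a cell type and a change in RNA per cell cannot be told apart.

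Of the 98 genes, 88 had enough coding reads for the test. The other 10 (Rbm11, Rbm20, Rbm24, Rbm31y, Rbm44, Rbm46, Rbm8a2, Srsf12, Snrpn and Hnrnpa0) had at most 14 reads in any library, and 4 of them had 0 reads in all 9. Snrpn, an imprinted gene that replaces Snrpb in neurons, had 0 to 7 reads. Hnrnpa0 had 2 to 14 reads on the coding reference but 115 to 437 on the authors' standard reference. There it was at 14.2, 16.9 and 20.2 TPM (transcripts scaled by length) in wildtype mice and at 20.6, 7.94 and 8.51 TPM in Eµ-MTCP1 mice, while Eµ-TCL1 mice had 8.78, 15.2 and 8.88 TPM. The groups overlapped, and it did not pass when it was tested on the standard reference or the deposited whole counts. Levels of different genes were compared as TPM, a length-scaled share of the transcripts, on the authors' standard reference, which holds whole transcripts, because TPM divides by length. The highest mean level in wildtype mice was that of Srsf5, an SR protein gene, at 877 ± 208 TPM (SD, n = 3). It was followed by Rbm39, a U2AF-related splicing coactivator, at 751 ± 129 TPM and by Snrpg, an Sm core protein gene, at 450 ± 72.2 TPM. The ranges of Srsf5 (741 to 1117 TPM) and Rbm39 (646 to 895 TPM) overlapped, while all 3 wildtype values of Snrpg (377 to 521 TPM) lay below both. The lowest of the tested genes were Rbm41 at 2.56 ± 1.65 TPM, Hnrnpll at 2.02 ± 1.71 TPM and Rbm12b1 at 1.63 ± 0.54 TPM, and these 3 did not differ beyond their spread. Hnrnpll is known as the factor that switches Cd45 splicing in activated lymphocytes and plasma cells.

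**Figure D1:**
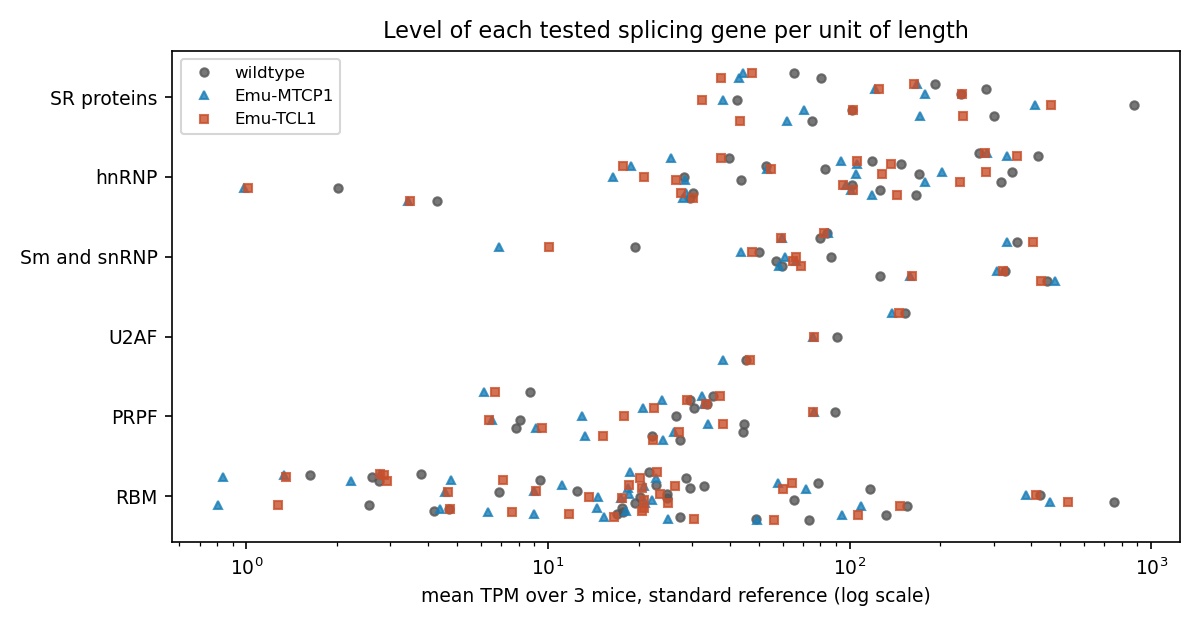
Mean TPM over 3 mice on the standard reference (log axis) for each of the tested genes, grouped by family, with a circle for wildtype, a triangle for Emu-MTCP1 (Eµ-MTCP1) and a square for Emu-TCL1 (Eµ-TCL1) mice. Wildtype levels run from 1.63 TPM (Rbm12b1) to 751 TPM (Rbm39) among RBM genes and from 42.3 to 877 TPM (Srsf5) among SR protein genes, while the U2AF genes span 45.4 to 152 TPM.

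The RBM genes Rbm47, Rbm38 and Rbm6 passed the test in a comparison with wildtype, and their promoters are shown because they are the genes on which the comparisons turn. The 250 bases before the start site are given 5′ to 3′ on the gene's strand, from RefSeq on build GRCm38.p6, with each CG dinucleotide in capitals.
Rbm47, chr5:66151955-66152204, minus strand: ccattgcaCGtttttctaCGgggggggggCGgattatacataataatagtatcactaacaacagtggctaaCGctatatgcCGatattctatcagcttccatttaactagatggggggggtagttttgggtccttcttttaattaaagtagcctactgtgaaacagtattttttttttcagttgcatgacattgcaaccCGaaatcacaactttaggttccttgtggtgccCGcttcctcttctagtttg
Rbm38, chr2:173021652-173021901, plus strand: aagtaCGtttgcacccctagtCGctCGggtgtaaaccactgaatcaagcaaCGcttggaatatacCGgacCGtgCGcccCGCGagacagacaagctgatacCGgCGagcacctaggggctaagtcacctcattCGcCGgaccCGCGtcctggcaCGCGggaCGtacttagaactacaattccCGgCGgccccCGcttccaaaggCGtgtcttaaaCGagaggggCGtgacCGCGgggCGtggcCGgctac
Rbm6, chr9:107872820-107873069, minus strand: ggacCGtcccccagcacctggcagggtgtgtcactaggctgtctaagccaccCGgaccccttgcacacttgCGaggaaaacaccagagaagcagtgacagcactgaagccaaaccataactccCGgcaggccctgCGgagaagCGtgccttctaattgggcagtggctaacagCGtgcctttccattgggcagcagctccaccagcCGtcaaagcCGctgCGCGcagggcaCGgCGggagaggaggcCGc

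The Rbm47 window held 7 CG dinucleotides and was 41.6% G and C, that of Rbm38 held 28 at 61.6%, and that of Rbm6 held 14 at 63.2%. Over 107 RefSeq promoters of 82 of the 98 genes the median was 19 CG dinucleotides, against 6 over all 32851 promoters in the table, so promoters of the splicing genes were richer in CG than most and that of Rbm47 was poorer than its group. The letters CACGTG, the E-box, which reads the same on both strands, stood in 12 of the 107 promoters (11.2%) and in 6.02% of all promoters, and in none of the 3 windows shown. Rbm47 has 3 RefSeq promoters, and the coding transcript with most of its reads, Rbm47-203, starts at none of them. The window printed lies within 30 bases of the start of Rbm47-205, which had 0 to 36 reads in wildtype mice, 52 to 141 in Eµ-MTCP1 mice, with 49 to 148 for Eµ-TCL1.

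In the comparison of Eµ-MTCP1 with wildtype mice, 1 of the 88 genes was higher (Rbm47) and 2 were lower (Rbm38 and Rbm6) by the quasi-likelihood test of edgeR, with p-values adjusted over 11227 genes and a threshold of 0.05. Over all genes tested 9.45% passed. In the comparison of Eµ-TCL1 with the same wildtype mice, 1 gene was higher (Rbm47) and 1 was lower (Rbm38), while 9.19% of all genes passed. Both comparisons share the 3 wildtype mice, so they are not separate evidence. No SR, hnRNP, Snrp, U2AF or PRPF gene passed in either comparison.

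Rbm47 encodes an RNA-binding protein known as a cofactor of the cytidine deaminase Apobec1 in RNA editing and as a regulator of alternative splicing. Its coding reads gave 11.6, 4.87 and 5.93 CPM in wildtype mice Z2785, Z2755 and Z2754. In Eµ-MTCP1 mice Z2641, Z2606 and Z2551 they gave 48.6, 35.3 and 47.8 CPM. In Eµ-TCL1 mice C1594, B4437 and B4376 they gave 66.9, 40.9 and 46.9 CPM. All 6 transgenic mice lay above all 3 wildtype mice. Rbm47 rose 5.91-fold in Eµ-MTCP1 mice (log2 fold change 2.56, SE 0.35, adjusted p = 0.00149) and by 2.80 on the log2 scale in Eµ-TCL1 mice (SE 0.35, adjusted p = 0.000902). On the standard reference it had 76 to 104 reads per wildtype mouse against 385 to 484 in Eµ-MTCP1 mice, with 485 to 663 for Eµ-TCL1. Part of these reads fell on a retained-intron transcript, Rbm47-214, with 11, 9 and 19 reads in wildtype mice and 210, 125 and 136 in Eµ-MTCP1 mice, while Eµ-TCL1 mice had 181, 150 and 139. The retained-intron share of Rbm47 was 10.8 to 22.3% in wildtype and 31.0 to 43.4% in Eµ-MTCP1 mice, with 27.3 to 28.9% for Eµ-TCL1, and its usage did not pass (edgeR adjusted p = 1). The call held in each of the 19 other settings in both comparisons. Cd68, the myeloid marker that passed, was 2.06 higher in Eµ-MTCP1 and 1.91 higher in Eµ-TCL1 mice on the log2 scale. The other myeloid markers did not pass and did not share a direction. Csf1r (-1.08 and -0.35), Lyz2 (-0.97 and -0.57) and S100a8 had negative values in both comparisons. Itgam had positive values in both (0.777 and 0.197), while Adgre1 (0.75 and -0.21) and S100a9 (0.023 and -2.43) were mixed. The summed myeloid level spanned 818 to 1705 CPM in wildtype and 838 to 1290 CPM in Eµ-MTCP1 mice, with 353 to 1521 CPM for Eµ-TCL1, and its part in the Rbm47 result was not tested.

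Rbm38 encodes an RNA-binding protein that is a known target of p53 and regulates the stability and splicing of selected mRNAs. It was at 81.7, 72.1 and 46.7 CPM in wildtype mice and at 42.0, 28.3 and 30.0 CPM in Eµ-MTCP1 mice, while Eµ-TCL1 mice had 25.2, 22.3 and 23.9 CPM. The groups did not overlap: every Eµ-TCL1 mouse lay below every Eµ-MTCP1 mouse, and those below every wildtype mouse, although wildtype Z2754 and Eµ-MTCP1 Z2641 stood close to each other. Rbm38 fell by 1.49 on the log2 scale in Eµ-TCL1 mice (SE 0.25, adjusted p = 0.00450). In Eµ-MTCP1 mice it fell from 66.9 ± 18.1 to 33.4 ± 7.48 CPM (SD, n = 3 each; edgeR adjusted p = 0.0295). The direct comparison of the transgenic groups gave -0.49 (SE 0.25, adjusted p = 0.803), so a further decrease in Eµ-TCL1 mice was not shown. The Eµ-MTCP1 call was lost without wildtype Z2785 (adjusted p = 0.0930) or Z2755 (0.0937) and without Eµ-MTCP1 Z2606 (0.0688) or Z2551 (0.108), with a log2 fold change of -0.83 to -0.96. The Eµ-TCL1 call held in all 19 other settings.

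Rbm6 encodes a regulator of alternative exons, related to Rbm5 and Rbm10. It was at 109, 110 and 135 CPM in wildtype mice and at 72.5, 71.1 and 80.0 CPM in Eµ-MTCP1 mice, while Eµ-TCL1 mice had 83.4, 71.4 and 98.4 CPM. All 6 transgenic mice lay below the wildtype mice. Rbm6 fell by 0.66 on the log2 scale in Eµ-MTCP1 mice (SE 0.18, adjusted p = 0.0451), while in Eµ-TCL1 mice the difference was -0.48 (SE 0.18, adjusted p = 0.124). This call lay close to the threshold and held in 7 of 19 other settings, with adjusted p from 0.00987 to 0.250, and it was lost when any wildtype or any Eµ-MTCP1 library or Eµ-TCL1 C1594 was left out (0.0634 to 0.136). With offsets for transcript length the value was -1.58 and did not pass (adjusted p = 0.169). The 2 transgenic groups were not shown to differ in Rbm6 (0.18, SE 0.18, adjusted p = 0.894).

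**Figure D2:**
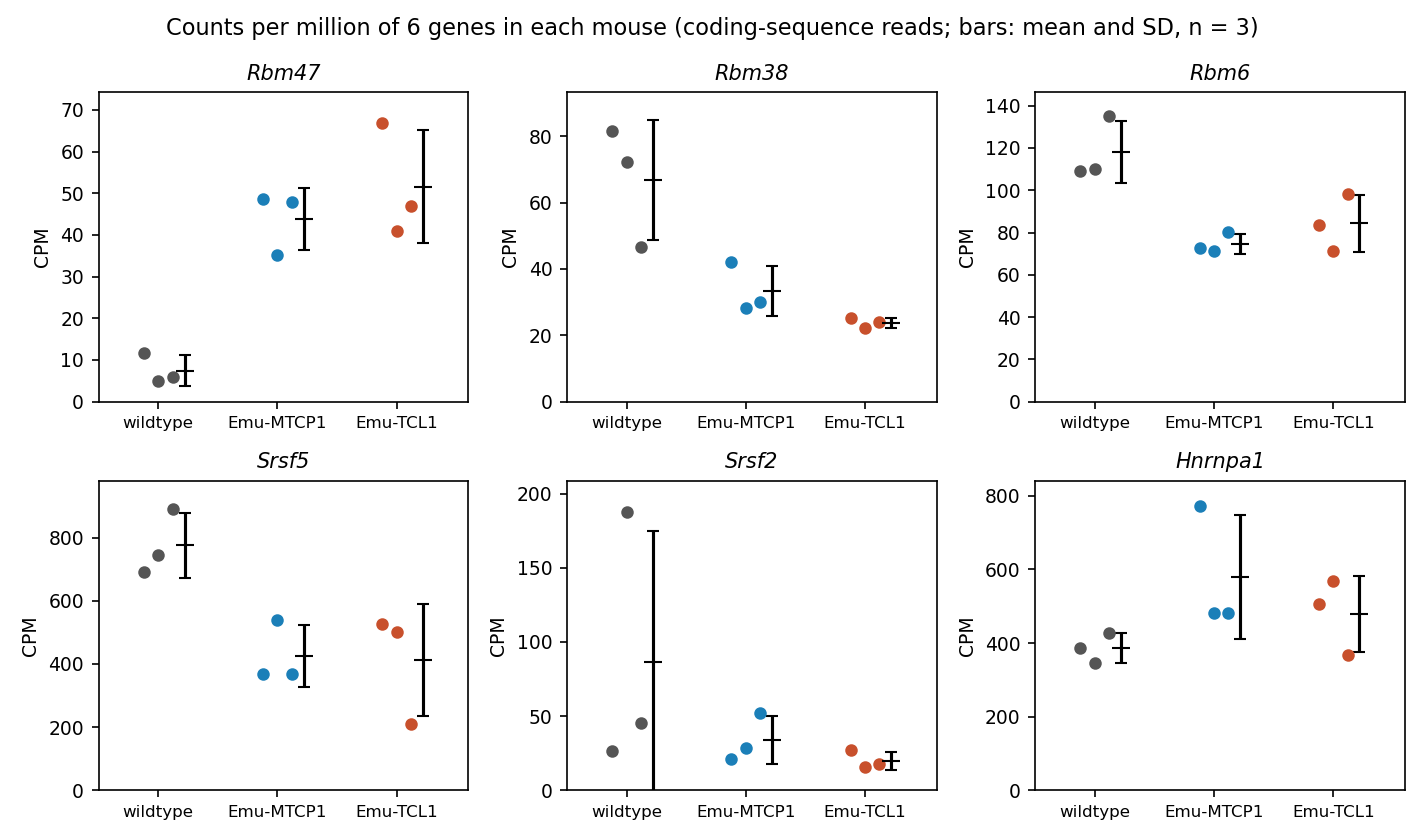
CPM (coding-sequence reads) of 6 genes in each mouse, 1 point per mouse, with the mean and SD of 3 mice beside each group and all axes starting at 0. Rbm47 lies higher and Rbm38, Rbm6 and Srsf5 lie lower in all 6 transgenic mice than in all 3 wildtype mice, while the Srsf2 mean of the wildtype group rests on mouse Z2755 at 188 CPM and its SD bar is cut at 0.

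The fold changes of the splicing genes lay closer together than those of all genes tested, and those of a list of 106 other splicing genes lay closer together still. In Eµ-MTCP1 mice 7 of the 88 genes (7.95%) differed from wildtype by more than 2-fold, against 20.9% of all genes tested, and in Eµ-TCL1 mice 6 did (6.82%), against 20.2%. Of the 106 other splicing genes 1.89% did in each comparison. The SD of the log2 fold changes over the 88 genes was 0.544 in Eµ-MTCP1 and 0.567 in Eµ-TCL1 mice, against 1.40 and 1.45 over all genes and 0.412 and 0.380 over the other splicing genes. The median was -0.13 in Eµ-MTCP1 and -0.10 in Eµ-TCL1 mice, with -0.02 and -0.01 over all genes. Groups did not overlap for 7 higher and 17 lower genes in Eµ-MTCP1 mice, where this held for 30.0% of all genes, and for 4 higher and 12 lower genes in Eµ-TCL1 mice, where it held for 32.6%. These are descriptions of the list, which includes weakly and strongly expressed genes, and no test was run on it.

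**Figure D3:**
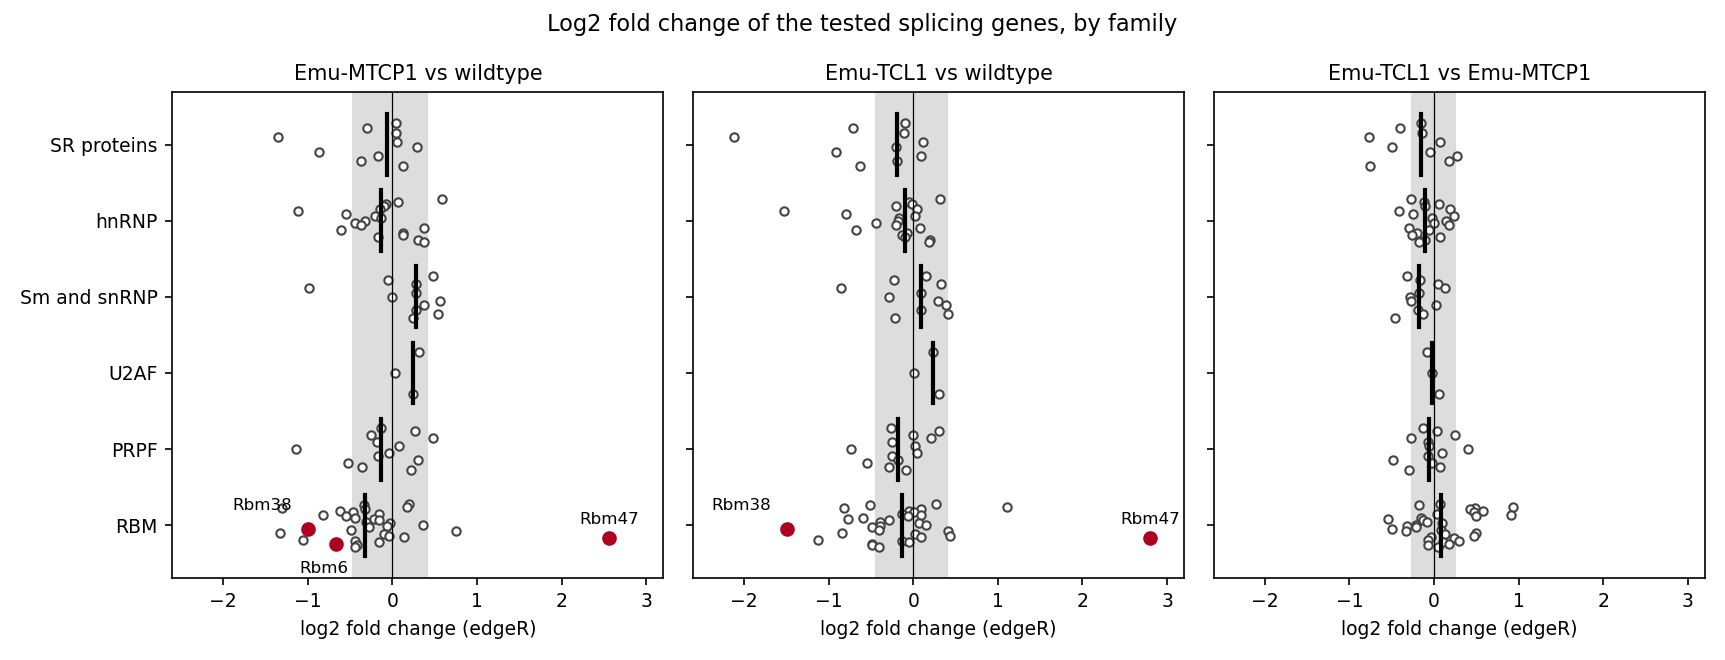
Log2 fold change of each of the 88 tested genes (horizontal axis) by family in the 3 comparisons. Filled red points passed the test, open points did not, black bars are family medians and the grey band is the interquartile range of all 11227 genes. Rbm47 stands far to the right at 2.56 and 2.80, Rbm38 lies to the left, and the RBM median in Eµ-MTCP1 mice is -0.32.

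Among the SR protein genes 10 were tested and 0 passed in either comparison with wildtype. Unadjusted p-values under 0.05 were found for 2 genes in Eµ-MTCP1 and 3 in Eµ-TCL1 mice, all lower. Over all 11227 genes, 1512 higher and 1285 lower genes had such a p in Eµ-MTCP1 mice, with 1481 and 1335 for Eµ-TCL1. The DESeq2 Wald test called Srsf2 and Srsf5 in Eµ-TCL1 mice. Srsf5 was at 692, 744 and 891 CPM in wildtype mice and at 369, 538 and 368 CPM in Eµ-MTCP1 mice, while Eµ-TCL1 mice had 525, 502 and 209 CPM. All transgenic mice lay below all wildtype mice, with log2 fold changes of -0.87 (SE 0.33, adjusted p = 0.136) and -0.91 (SE 0.33, adjusted p = 0.117). In Eµ-MTCP1 mice Srsf5 passed when Eµ-TCL1 B4376 was left out of the joint fit (adjusted p = 0.0427). Srsf2, whose human counterpart is mutated in myeloid malignancies, was at 26.4, 188 and 45.4 CPM in wildtype mice and at 20.8, 28.8 and 52.1 CPM in Eµ-MTCP1 mice, while Eµ-TCL1 mice had 26.8, 15.3 and 17.7 CPM. On these coding reads mouse Z2755, the one on another lane, set the wildtype mean. The edgeR log2 fold changes of -1.36 (adjusted p = 0.216) and -2.12 (adjusted p = 0.0708) did not pass. On the standard reference Srsf2 was at 138, 486 and 224 TPM in wildtype mice and at 89.0 to 148 TPM in transgenic mice. There wildtype Z2754 also lay above every transgenic mouse. Without Z2755 the values of Srsf2 were -0.12 and -0.89, and without wildtype Z2785 the second was -2.55 and passed (adjusted p = 0.0319). Srsf7 was at 261 to 293 CPM in wildtype and 201 to 229 CPM in Eµ-MTCP1 mice (-0.37, SE 0.16, adjusted p = 0.180). Srsf1, the founding SR protein ASF/SF2, was at 34.0 to 39.8 CPM in wildtype and 33.4 to 41.5 CPM in Eµ-MTCP1 mice, with 31.1 to 38.6 CPM for Eµ-TCL1, and had log2 fold changes of 0.05 (SE 0.18) and -0.10 (SE 0.18). Srsf3 (0.05 and 0.12) and Srsf6 (-0.17 and 0.09) did not pass either.

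Added together, the SR protein genes took 1731, 2008 and 1988 CPM in wildtype mice, 1470, 1481 and 1394 CPM in Eµ-MTCP1 mice and 1580, 1564 and 1074 CPM in Eµ-TCL1 mice. Every transgenic mouse lay below every wildtype mouse on these coding reads, but Srsf5 carried the separation. Without Srsf5, left out after the data were seen, the sums were 1039, 1264 and 1097 CPM in wildtype mice and 1101, 943 and 1026 CPM in Eµ-MTCP1 mice, while Eµ-TCL1 mice had 1055, 1062 and 865 CPM, and the groups overlapped. On the standard reference, which also holds untranslated regions and NMD transcripts, the sums were 2167 to 2960 CPM in wildtype and 1680 to 2110 CPM in Eµ-MTCP1 mice, with 1489 to 2240 CPM for Eµ-TCL1, and Eµ-TCL1 mouse C1594 overlapped wildtype mouse Z2785. The deposited whole counts gave this overlap too, at 2502 CPM in C1594 and 2303 CPM in Eµ-MTCP1 mouse Z2606 against 2302 CPM in Z2785. On the standard reference the Eµ-MTCP1 mice still lay below all wildtype mice, and in summed TPM all 6 transgenic mice did (1129 to 1731 TPM against 1800 to 2955 TPM). TPM had no TMM scaling, and the separation was not particular to SR genes. Eµ-MTCP1 mice also lay below wildtype in hnRNP (1799 to 1897 against 1977 to 2974 TPM) and PRPF sums (289.4 to 351.7 against 352.8 to 473.3 TPM). Their Snrp and U2AF sums overlapped wildtype. Mean TPM summed over all the splicing genes was 9367 in wildtype, 6905 in Eµ-MTCP1 and 7648 in Eµ-TCL1 mice. Without Srsf5 the SR TPM sums of Eµ-TCL1 and wildtype mice overlapped, while the Eµ-MTCP1 mice (885 to 912.5 TPM) stayed below the wildtype mice (1059 to 1838 TPM).

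The hnRNP genes, of which 19 were tested, had medians of -0.14 and -0.10, and 0 passed in Eµ-MTCP1 or Eµ-TCL1 mice against wildtype; unadjusted p-values under 0.05 were found for 2 and 3 of them, and DESeq2 called Hnrnpd in Eµ-TCL1 mice. Both hnRNP medians were positive or negative by setting (-0.37 to 0.05 and -0.24 to 0.00), with the highest values, 0.05 and 0.00, without wildtype Z2754. Hnrnpa1, an abundant repressor of exon inclusion, was at 387, 345 and 426 CPM in wildtype mice and at 773, 482 and 481 CPM in Eµ-MTCP1 mice, while Eµ-TCL1 mice had 505, 569 and 366 CPM. On these coding reads the Eµ-MTCP1 mice lay above the wildtype mice and the Eµ-TCL1 mice overlapped them. The edgeR log2 fold changes were 0.58 (SE 0.25, adjusted p = 0.180) and 0.32 (SE 0.25, adjusted p = 0.475). In TPM on the standard reference the Eµ-MTCP1 mice (231 to 383 TPM) overlapped the wildtype mice (227 to 295 TPM) for Hnrnpa1. Hnrnpk was at 576 to 864 CPM in wildtype and 476 to 666 CPM in Eµ-MTCP1 mice, with 584 to 726 CPM for Eµ-TCL1. Hnrnpa2b1 (0.07 and -0.05), Hnrnpl (0.37 and 0.08) and Hnrnpu (-0.17 and -0.10) had overlapping groups and did not pass. Hnrnpll, at 1.26 to 8.99 CPM over all mice, had log2 fold changes of -0.61 (SE 0.68) and -0.68 (SE 0.68).

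Of the Snrp genes 11 were tested, and 0 passed with edgeR or DESeq2, with unadjusted p-values under 0.05 for 2 genes in Eµ-MTCP1 mice (both higher) and 0 in Eµ-TCL1 mice. Their medians were 0.28 in Eµ-MTCP1 and 0.09 in Eµ-TCL1 mice, the first positive in the main fit and all 19 other settings (0.04 to 0.37), and the second positive or negative by setting (-0.05 to 0.28). Snrpb, an Sm core protein gene, was at 257 to 340 CPM in wildtype and 319 to 449 CPM in Eµ-MTCP1 mice, with 327 to 435 CPM for Eµ-TCL1. Snrpd3, another Sm gene, was at 76.5 to 97.3 CPM in wildtype and 96.4 to 132 CPM in Eµ-MTCP1 mice, with 106 to 114 CPM for Eµ-TCL1 (0.39, SE 0.18, adjusted p = 0.215). U2af1 (0.32 and 0.24) and U2af2 (0.24 and 0.30), which recognize the 3′ splice site together, had positive values with overlapping groups, and 0 of the 3 U2AF genes had an unadjusted p under 0.05 in edgeR or passed with DESeq2. Eµ-MTCP1 mouse Z2641 was the highest of the 9 mice for the summed Snrp genes (1329 CPM against 839 to 1128 CPM in the others) and for the summed U2AF genes (335 CPM against 207 to 312 CPM). Without Z2641, whose mitochondrial share was 8%, the Snrp median in Eµ-MTCP1 mice was 0.09, and the part of that share in these sums was not tested.

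The PRPF genes, all 13 tested, had medians of -0.13 and -0.18, and 0 passed in edgeR, with unadjusted p-values under 0.05 for 2 in Eµ-MTCP1 and 0 in Eµ-TCL1 mice. The medians ran from -0.37 to -0.04 and from -0.32 to 0.00 over the 19 other settings, and without wildtype Z2754 they were -0.05 and -0.08. Prpf8, the large protein at the catalytic center of the spliceosome, was at 344 to 402 CPM in wildtype and 408 to 463 CPM in Eµ-MTCP1 mice, with 285 to 426 CPM for Eµ-TCL1. In TPM on the standard reference the order was reversed, at 25.9 to 29.1 TPM in wildtype and 22.65 to 24.8 TPM in Eµ-MTCP1 mice. Prpf31, a protein of the U4/U6 particle, was at 71.7 to 96.7 CPM in wildtype against 115 to 120 CPM in Eµ-MTCP1 mice without overlap (0.48, SE 0.18, edgeR adjusted p = 0.129). In TPM on the standard reference these groups overlapped, at 29.1 to 41.3 TPM in wildtype and 31.8 to 34.9 TPM in Eµ-MTCP1 mice. Prpf19 gave 0.27 and 0.31 with overlapping groups. Prpf39, which falls outside the rule for named genes and was chosen after its values were seen, was at 31.1, 43.6 and 98.5 CPM in wildtype mice and at 23.1 to 30.7 CPM in Eµ-MTCP1 mice (-1.14, SE 0.38, adjusted p = 0.0964), and DESeq2 called it.

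**Figure D4:**
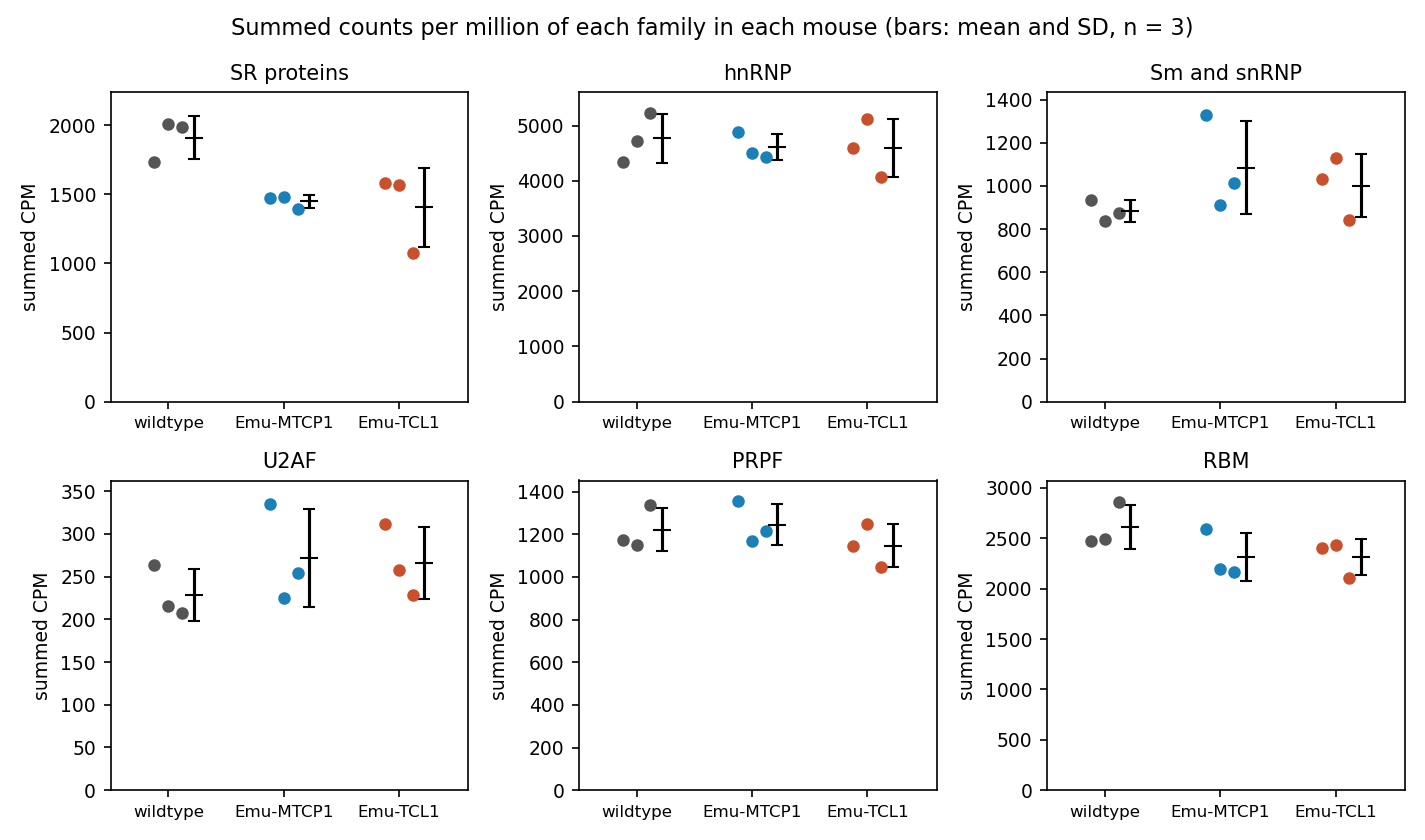
Summed CPM of each family in each mouse (coding-sequence reads), 1 point per mouse, with the mean and SD of 3 mice beside each group and all axes starting at 0. In these CPM the SR protein sum of all 6 transgenic mice (1074 to 1580 CPM) lies below that of all 3 wildtype mice (1731 to 2008 CPM), which is not so without Srsf5. The RBM sum is lower in the Eµ-TCL1 mice alone (2109 to 2430 CPM against 2471 to 2860 CPM), a separation not seen in CPM on the other 2 read sets, and the hnRNP, Snrp, U2AF and PRPF sums overlap between wildtype and both transgenic groups.

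All of the genes that passed were RBM genes, the largest family. In Eµ-MTCP1 mice 1 of 32 tested RBM genes was higher and 2 were lower, where 9.45% of all genes passed. In Eµ-TCL1 mice 1 was higher and 1 was lower, where 9.19% of all genes passed. Of 32 tested, with Rbm47, Rbm38 and Rbm6 among them, 26 had a negative log2 fold change in Eµ-MTCP1 and 20 in Eµ-TCL1 mice, with medians of -0.32 and -0.13. Over all 11227 genes 5775 and 5698 were negative. The medians stayed negative over the 19 other settings, from -0.55 to -0.17 and from -0.33 to -0.07. The summed RBM level was 2471 to 2860 CPM in wildtype and 2161 to 2590 CPM in Eµ-MTCP1 mice, with 2109 to 2430 CPM for Eµ-TCL1, so that wildtype and Eµ-TCL1 mice did not overlap on coding reads. They overlapped on the standard reference, where B4437 had 2380 CPM against 2364 CPM in wildtype Z2785, and on the deposited whole counts, where C1594 and B4437 had 2466 and 2535 CPM against 2448 CPM. The Eµ-MTCP1 mice lay below the wildtype mice on the standard reference (2030 to 2353 CPM against 2364 to 3023 CPM) and overlapped them on the whole counts. In summed TPM on the standard reference, without TMM scaling, the hnRNP and PRPF sums of Eµ-MTCP1 mice lay below wildtype too. In that measure the RBM sums of all 6 transgenic mice lay below those of the wildtype mice (1395 to 1867 TPM against 1903 to 2507 TPM). Without Rbm39, the most abundant RBM gene, Eµ-TCL1 mouse B4437 (1319 TPM) lay above wildtype Z2785 (1258 TPM). The Eµ-MTCP1 mice (986 to 1224 TPM) still lay below the wildtype mice (1258 to 1612 TPM). The cold-inducible Rbm3 was at 258 to 350 CPM in wildtype and 294 to 556 CPM in Eµ-MTCP1 mice, with 287 to 415 CPM for Eµ-TCL1. Rbm5 gave -0.15 and -0.05, and Rbm39 gave -0.49 (SE 0.25, adjusted p = 0.247) and -0.40 (SE 0.25, adjusted p = 0.345). Rbm48, a partner in minor-intron splicing that was chosen after its values were seen, was at 25.8, 28.5 and 35.1 CPM in wildtype mice and at 9.56, 20.8 and 12.6 CPM in Eµ-MTCP1 mice, while Eµ-TCL1 mice had 17.2, 15.2 and 8.70 CPM. Each transgenic group lay below wildtype, the transgenic groups overlapped each other, and the tests against wildtype gave -1.05 (SE 0.35, adjusted p = 0.0929) and -1.12 (SE 0.35, adjusted p = 0.0743).

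The 2 transgenic groups were also compared with each other. Of the 88 genes 0 passed in the edgeR test or with DESeq2, with 0.0445% of all genes passing in edgeR. Over all 11227 genes, 367 higher and 357 lower genes had an unadjusted edgeR p under 0.05. Among the 88 genes 2 had such a p. Those were Rbm18 at 4.94, 8.36 and 8.35 CPM in Eµ-MTCP1 mice against 14.1, 12.3 and 14.4 CPM in Eµ-TCL1 mice (0.91, SE 0.31, adjusted p = 0.645), and Rbm15 (0.58, SE 0.26, adjusted p = 0.766). Of the 88 genes 0 differed by more than 2-fold, against 9.575% of all genes tested. The groups did not overlap for 6 higher and 5 lower genes, where this held for 11.0% of all genes.

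A list of 106 other splicing genes, including kinases, helicases and U1, U2 and U5 proteins, was all tested. In Eµ-MTCP1 mice 3 were higher and 1 was lower, where 9.45% of all genes passed. In Eµ-TCL1 mice 3 were higher and 0 lower, where 9.19% of all genes passed. Ppil1, a prolyl isomerase of the spliceosome, was at 29.1, 41.5 and 31.7 CPM in wildtype, 102, 70.8 and 121 CPM in Eµ-MTCP1 and 84.1, 88.2 and 80.2 CPM in Eµ-TCL1 mice. It rose by 1.52 (adjusted p = 0.00270) and by 1.30 (adjusted p = 0.00592) on the log2 scale. Mbnl2, a muscleblind-like regulator of alternative exons, rose from 13.6 ± 2.50 CPM in wildtype to 36.5 ± 2.58 CPM in Eµ-MTCP1 mice, with 31.0 ± 4.11 CPM for Eµ-TCL1 (SD, n = 3 each; edgeR adjusted p = 0.00302 and 0.00765). Pcbp2, a poly(C)-binding protein, rose by 0.76 (adjusted p = 0.0300) and 0.68 (adjusted p = 0.0478). Tra2a, an SR-like activator of exon inclusion, fell by 0.84 in Eµ-MTCP1 mice (adjusted p = 0.0430), and its direct difference between the transgenic groups did not pass (0.82, adjusted p = 0.510).

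Transcript classes were examined next, because SR genes are known for NMD transcripts. Reads of the standard reference were summed per gene over coding, NMD, retained-intron and other transcripts. The last 27 coding bases of the most-read NMD and coding transcript of 3 SR genes are shown, from the M21 annotation on GRCm38, with the stop codon in capitals, since in these genes the NMD and coding transcripts end at different stops. Srsf2 is not shown because its NMD transcript Srsf2-202 and its coding transcript Srsf2-201 share 1 stop (chr11:116852028-116852030) and encode the same 221 residues, the former with its last exon junction 217 bases past the stop.
Srsf3-201, NMD, stop at chr17:29039485-29039487, plus strand: atcatgtctcttctcaccaccctcTGA
Srsf3-202, coding, stop at chr17:29041409-29041411, plus strand: cgatctaggtcaaatgaaaggaaaTAG
Srsf6-201, NMD, stop at chr2:162932964-162932966, plus strand: atgacgacagcagccttttgccatTAG
Srsf6-203, coding, stop at chr2:162934755-162934757, plus strand: aggtccagatcaagttccagagatTAA
Srsf7-203, NMD, stop at chr17:80205054-80205056, minus strand: tttcttcgtttgagtcagtcgcctTGA
Srsf7-208, coding, stop at chr17:80201548-80201550, minus strand: agtgcaagtccagaaagaatggacTGA

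The NMD transcripts encode 124, 135 and 137 residues for Srsf3, Srsf6 and Srsf7, against 164, 339 and 235 for the coding transcripts. Their stops lie 548, 534 and 699 bases upstream of the last exon junction, while the coding stops lie in the last exon. Of the reads of the 11 SR genes, 22.1 to 25.9% fell on NMD transcripts in wildtype and 15.2 to 22.9% in Eµ-MTCP1 mice, with 25.4 to 28.3% for Eµ-TCL1, against 3.40 to 6.37% over all genes. Retained-intron transcripts took 19.2 to 27.1% of the reads of the SR genes and 5.64 to 6.82% of those of all genes. Such shares rest on the division of shared reads by Salmon and not on reads over the deciding exon.

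For Srsf3 the NMD share was 56.9, 54.1 and 47.1% in wildtype mice and 29.8, 50.2 and 40.1% in Eµ-MTCP1 mice, while Eµ-TCL1 mice had 55.9, 48.5 and 46.7%. For Srsf7 it was 70.7, 67.3 and 67.0% in wildtype mice and 39.6, 63.9 and 49.2% in Eµ-MTCP1 mice, while Eµ-TCL1 mice had 63.9, 64.6 and 60.8%. Mice Z2641 and Z2551 stood lowest for both genes, and Z2606 lay near the wildtype values. All Eµ-MTCP1 and Eµ-TCL1 mice were below the wildtype mice for Srsf7, whereas for Srsf3 the groups overlapped. In Srsf6 the NMD share was 23.4 to 38.4% in wildtype and 23.9 to 34.1% in Eµ-MTCP1 mice, with 30.6 to 45.0% for Eµ-TCL1. In Srsf2 the retained-intron share was 21.6 ± 4.42% (SD, n = 3) in wildtype mice and 26.7, 30.2 and 27.3% in Eµ-MTCP1 mice, while Eµ-TCL1 mice had 29.1, 31.4 and 34.7%.

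**Figure D5:**
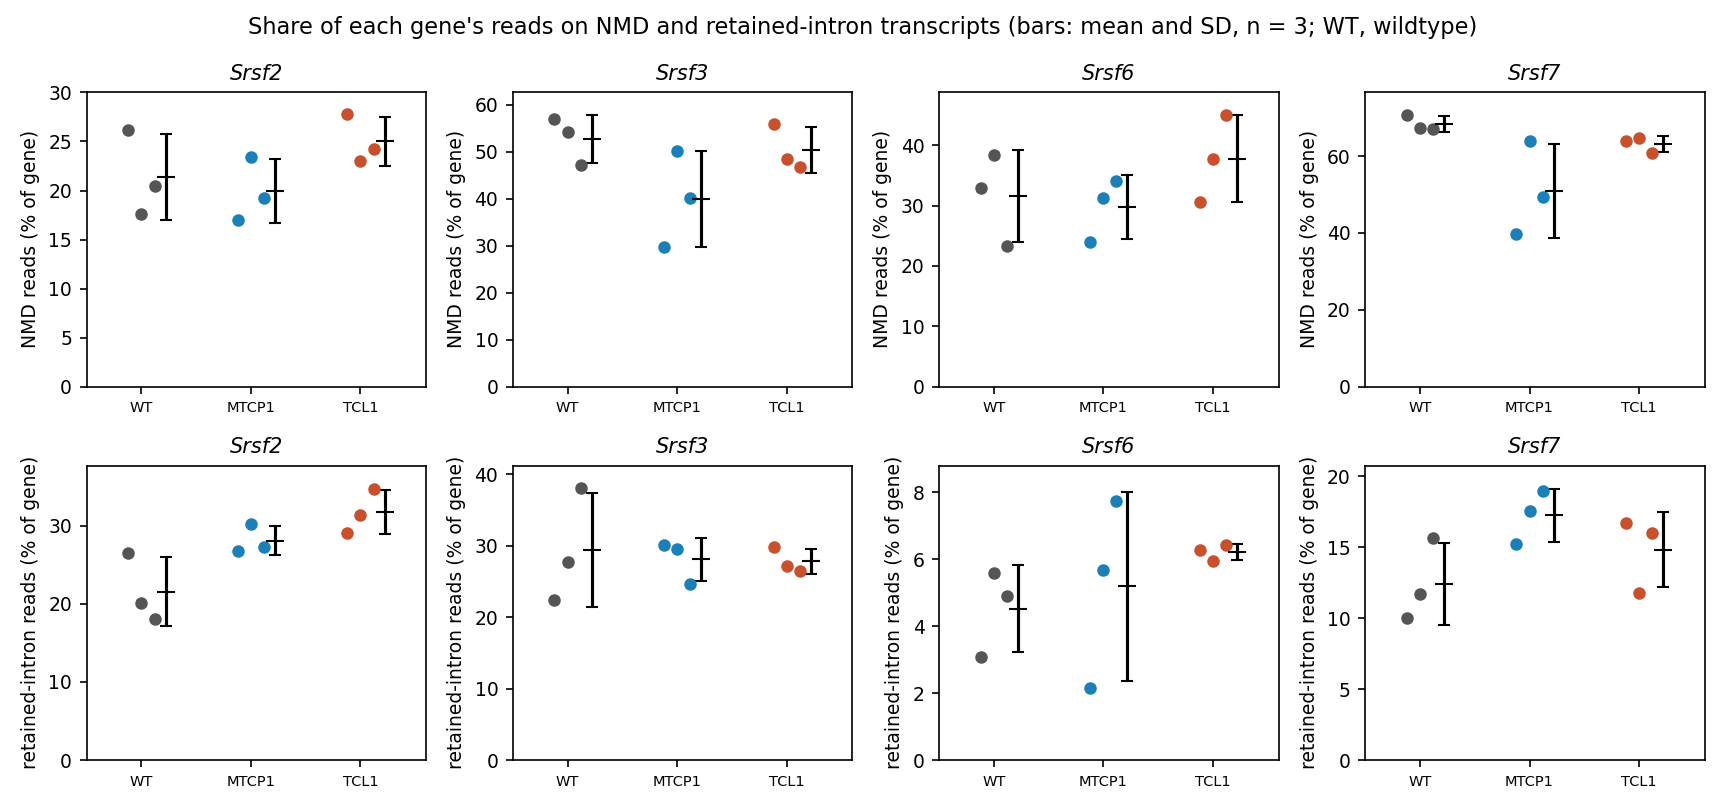
Share of the reads of Srsf2, Srsf3, Srsf6 and Srsf7 (percent of the gene, standard reference) on NMD transcripts (top) and retained-intron transcripts (bottom) in each mouse, with the mean and SD of 3 mice beside each group and axes starting at 0. The NMD share of Srsf7 is lowest in Eµ-MTCP1 mice Z2641 (39.6%) and Z2551 (49.2%), and the retained-intron share of Srsf2 is above the wildtype range in all 6 transgenic mice.

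None of these differences passed the test of usage within a gene. Of 92 NMD or retained-intron sums of 59 of the 98 genes, 0 passed in the Eµ-MTCP1 comparison, 0 against wildtype for Eµ-TCL1 and 0 in the direct comparison (edgeR diffSpliceDGE), where 0.105%, 0.0602% and 0.0451% of all 6646 such sums passed. Unadjusted p-values under 0.05 were found for 4, 3 and 1 of the 92 (4.35%, 3.26% and 1.09%), against 3.73%, 3.42% and 2.42% of all such sums, and limma on the log2 odds of each class, added after the data were seen, also called 0. The smallest p for an SR gene in any class was that of the coding share of Srsf3 in Eµ-MTCP1 mice (edgeR diffSpliceDGE, unadjusted p = 0.0119, adjusted p = 1). This share was 14.7 to 20.2% in wildtype and 19.9 to 40.0% in Eµ-MTCP1 mice. The NMD share of Rbm6 was 6.48 to 12.1% in wildtype and 16.2 to 28.2% in Eµ-MTCP1 mice, with 4.49 to 9.22% for Eµ-TCL1, and the Eµ-MTCP1 mice lay above both other groups. Its difference did not pass either (edgeR adjusted p = 1 in both comparisons, unadjusted p = 0.0201 against wildtype and 0.00415 against Eµ-TCL1).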

How the data were processed

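Splenic B cells of 9 mice (3 per group, grouped by the deposited genotype labels) were sequenced by the authors, and each mouse is a biological replicate. Per the labels, Salmon 1.0.0 and build GRCm38.p4 were used. The authors ran Salmon to give estimated counts and TPM for transcripts of a standard reference and of a reference with human sequences, which holds coding sequences only (57040 of 57040 transcripts within 3 bases of their coding length). Whole counts per gene and normalized log2 values (DESeq2) were also deposited by the authors. Their fold change and p-value columns were not used.

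Transcripts were joined to genes with GENCODE M21, while the study names release 23; unmatched mouse transcripts held at most 0.291% of the reads. Estimated counts on the coding reference were summed per gene, rounded, filtered by filterByExpr (11227 genes left), normalized by TMM and tested in edgeR 4.0.16 under R 4.3.3 (quasi-likelihood F), fitting the 9 libraries jointly, with Benjamini-Hochberg adjustment over all genes of a comparison. Two-sided adjusted p-values under 0.05 passed. SE is the absolute log2 fold change divided by the square root of F. CPM used TMM-scaled library sizes, and at these depths 3 reads are 0.373 to 0.464 CPM. Usage was tested with diffSpliceDGE. Scripts were tested on simulated data. Precision is limited by 3 mice per group. SMARTer, Nextera XT and TruSeq stranded kits are named; the strand setting of the counter is not given in the sources used here.

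Genes named are those that passed, a list of 25 chosen by known role, and the 3 highest and 3 lowest by wildtype TPM; Prpf39, Rbm48, Rbm18, Rbm15, Hnrnpd, Srsf11 and Prpf38b were added after their values were seen. The members and lists were chosen with earlier results of these data known. Alternatives were other scalings, filters, tools (DESeq2 1.42.0, limma 3.58.1), references and leaving out each library; limma on the log2 odds of transcript classes was added after the data were seen.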

Additional observations from a re-analysis of the deposited data

How the results depend on the processing

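Rbm47 (both comparisons) and Rbm38 (Eµ-TCL1) passed in all 19 other settings; Rbm38 in Eµ-MTCP1 mice passed in 15 and Rbm6 in 7. Of 1425 values over these settings of 25 genes (Rbm6 and the genes chosen by role, without Snrpn), 1404 kept their side of the threshold, 16 lost and 5 gained it, and 0 changed sign while passing; 70 that did not pass changed sign. Outside these, Prpf39 passed in 3 settings and Rbm48 in 3 in Eµ-MTCP1 mice, and Rbm48 in 4 and Hnrnpd in 2 in Eµ-TCL1 mice. Without a composition factor the median of all genes moved to -0.26 in Eµ-MTCP1 and -0.15 in Eµ-TCL1 mice, the median of the splicing genes moved to -0.37 and -0.24, and 5 genes passed in Eµ-MTCP1 mice. DESeq2 called 5 genes in Eµ-MTCP1 mice (also Prpf39 and Rbm48) and 6 in Eµ-TCL1 mice (also Hnrnpd, Rbm48, Srsf2 and Srsf5), where it called 14.8% and 15.2% of all genes; the cause was not tested. Leaving out single libraries gave 1 to 4 genes in Eµ-MTCP1 mice, 2 to 4 in Eµ-TCL1 mice and 0 in the direct comparison. The count fell to 1 (Rbm47) without wildtype Z2755 or Eµ-MTCP1 Z2551, rose to 4 (with Srsf5) without Eµ-TCL1 B4376, and rose to 4 in Eµ-TCL1 mice without wildtype Z2785. The share of all genes that passed in Eµ-MTCP1 mice fell to 4.91% without wildtype Z2755, 4.61% without Z2754 and 5.21% without Eµ-MTCP1 Z2551, and that in Eµ-TCL1 mice to 4.82% without Z2755, 4.51% without Z2754 and 5.74% without C1594. The median ran from -0.21 to -0.05 in Eµ-MTCP1, -0.19 to -0.06 in Eµ-TCL1 mice and -0.12 to 0.04 in the direct comparison.

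With single transcripts in place of classes, 1 of 186 NMD or retained-intron transcripts of the splicing genes passed in Eµ-TCL1 mice and 2 in the direct comparison, against 21 and 12 of 10721 over all genes. Srsf11-207 (retained intron) had 43, 0 and 0 reads in wildtype, 40, 43 and 17 in Eµ-MTCP1 and 0 in all Eµ-TCL1 mice, and Prpf38b-204 (NMD) had 0, 76 and 0, then 73, 0 and 60, and 0 in all Eµ-TCL1 mice. The wildtype reads of Srsf11-207 came from mouse Z2785 alone, and the cause was not tested. No paired analysis was possible because each library came from a different mouse and the labels, which give mouse names and no replicate numbers, pair none of them. Depth limits Hnrnpll, Rbm41, Rbm12b1 and the 10 untested genes.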
